A study of Mus musculus with 22 samples.

Results

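Sex differences in hepatic gene expression were examined in mice under caloric restriction (CR), by comparing 6 CR females with 5 CR males. These 11 mice are part of a series of 22 livers, and the other 11 came from mice fed ad libitum (AL), 5 females and 6 males. All were wild-type C57BL/6NCrl mice, an inbred substrain. Restriction began at 9 weeks of age and lasted until 13 weeks, with 70% of the food that AL mice ate, and every mouse of either diet was fasted for about 8 h before its liver was taken, so that no group was sampled fed. Total RNA of each liver was sequenced as 1 library. The measurement is the normalised count, which is the number of reads on a gene divided by a size factor for the depth of its library. Levels are given as mean ± SD over mice, and differences as log2 of females minus males ± SE. Only autosomal genes are described, since X-linked genes differ in copy number between the sexes. A gene was tested where its normalised count averaged at least 10 over the 22 livers, which left 13381 autosomal genes of 14035 tested and of 16838 in the table.

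As background, the liver is one of the most sexually dimorphic organs of the mouse. Growth hormone is released in pulses in males and more continuously in females, and the liver reads this pattern through the growth hormone receptor, JAK2 and the transcription factor STAT5B, with BCL6 and CUX2 acting downstream as repressors that favour the male and the female programme, respectively. The best known outputs are cytochrome P450 enzymes of families 2, 3 and 4, sulphotransferases, organic ion transporters and the major urinary proteins, which males make in the liver, release into the blood and excrete as carriers of pheromones.

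The CR libraries held 34760279 to 35230549 reads on genes. All 8 hepatocyte markers examined, albumin and transferrin among them, were abundant in every CR liver and none was called between the sexes. Xist and the genes on chromosome Y had been removed before deposit, so that the sex labels were not checked on them. Transcripts of 23 pancreatic acinar genes made up 1.197% of the normalised counts of CR female replicate 5 and 0.295% of those of CR male replicate 4, against at most 0.0443% in the other 9 CR libraries. Results are therefore also given without these libraries. In AL mice the acinar genes had a median difference, females minus males, of 3.77 on the log2 scale, with none called. AL libraries were left out only 1 at a time, so the comparisons with AL mice are not free of these transcripts. In bulk tissue, fewer cells of a type and less RNA per cell cannot be told apart.

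The contrast called 280 of the 13381 autosomal genes (2.09%), with 178 higher in CR females (1.33%) and 102 higher in CR males (0.762%). A gene was called where the fold change between the sexes exceeded 1.5 and the adjusted p of limma (Benjamini-Hochberg over all genes tested) was below 0.05. The median fold was 2.05 on the female side and 2.19 on the male side: 87 of the 178 and 42 of the 102 were under 2-fold, while 23 genes higher in CR females and 9 higher in CR males differed by more than 10-fold. In 189 of the 280, no value of one sex fell within the range of the other, which was true of 4.58% of all autosomal genes tested. The median difference over all autosomal genes was close to 0, at -0.0032 on the log2 scale, and 49.4% of them lay higher in CR females.

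These counts leaned on single mice. Leaving out CR male replicate 5 lowered them to 104 and 63 genes, and leaving out CR male replicate 2 raised them to 259 and 180. Without CR female replicate 1 or 6, 110 or 114 genes were higher in CR females. Without CR female replicate 5 there were 172 and 109, and without both libraries that carried acinar transcripts 119 and 84. Quantile normalisation moved the split to 114 genes higher in CR females and 126 higher in CR males, or 47.5% in place of 63.6% on the female side. No gene called in the main analysis was called in the opposite direction in any of the 35 alternatives.

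The stretches upstream of a few of the genes are printed here because some of the genes with large differences are close copies of each other. They come from the RefSeq annotation of GRCm38.p6, the build of the deposited counts, are read 5′ to 3′ on the strand of the gene, and lie before the annotated gene. Cyp3a41b, at chr5:145584733-145584980 (minus strand), and Cyp3a41a, at chr5:145720139-145720386 (minus strand), shared all but 1 of 248 bases. Cyp2b13, at chr7:26061245-26061387 (plus strand), and Cyp2b9, at chr7:26173159-26173301 (plus strand), shared all but 2 of 143. Capitals mark the bases at which the 2 members of a pair differ.
Cyp3a41b: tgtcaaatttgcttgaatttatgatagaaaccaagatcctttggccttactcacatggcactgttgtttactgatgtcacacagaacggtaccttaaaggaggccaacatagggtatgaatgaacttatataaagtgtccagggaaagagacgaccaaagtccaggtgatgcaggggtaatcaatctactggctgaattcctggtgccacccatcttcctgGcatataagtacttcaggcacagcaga
Cyp3a41a: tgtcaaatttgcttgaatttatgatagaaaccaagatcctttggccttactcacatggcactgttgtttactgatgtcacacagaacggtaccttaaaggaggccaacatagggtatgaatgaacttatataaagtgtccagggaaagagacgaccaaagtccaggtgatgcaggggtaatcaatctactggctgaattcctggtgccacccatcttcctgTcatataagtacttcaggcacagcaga
Cyp2b13: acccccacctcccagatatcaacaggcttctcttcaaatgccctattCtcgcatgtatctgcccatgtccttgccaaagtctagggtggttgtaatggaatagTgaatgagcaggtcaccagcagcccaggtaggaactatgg
Cyp2b9: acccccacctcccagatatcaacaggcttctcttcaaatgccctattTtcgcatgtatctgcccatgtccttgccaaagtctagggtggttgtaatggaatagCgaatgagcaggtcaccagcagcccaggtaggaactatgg
The windows of other genes with large differences, Sult2a5 at chr7:13623717-13623966 (plus strand), Nat8f5 at chr6:85820973-85821222 (minus strand) and Slco1a1 at chr6:141946963-141947212 (minus strand), held none of the motifs searched.
Sult2a5: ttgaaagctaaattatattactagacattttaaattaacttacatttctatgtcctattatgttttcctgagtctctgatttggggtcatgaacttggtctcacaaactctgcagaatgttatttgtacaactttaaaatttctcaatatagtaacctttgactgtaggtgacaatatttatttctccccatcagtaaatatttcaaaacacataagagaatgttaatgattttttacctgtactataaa
Nat8f5: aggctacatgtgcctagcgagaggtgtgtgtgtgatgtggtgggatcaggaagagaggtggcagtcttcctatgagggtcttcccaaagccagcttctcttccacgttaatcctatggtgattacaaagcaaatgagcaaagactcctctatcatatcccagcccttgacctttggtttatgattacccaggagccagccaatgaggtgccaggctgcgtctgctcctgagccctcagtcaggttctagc
Slco1a1: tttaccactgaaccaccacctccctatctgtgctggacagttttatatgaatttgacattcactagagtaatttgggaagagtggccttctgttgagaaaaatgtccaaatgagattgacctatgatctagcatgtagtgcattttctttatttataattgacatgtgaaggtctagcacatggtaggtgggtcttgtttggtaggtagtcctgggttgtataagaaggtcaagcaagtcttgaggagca

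Sequence motifs were searched on both strands in the 250 bases before the starts of the 10209 autosomal genes tested that had an entry, 124 of them called higher in CR females and 74 called higher in CR males. The STAT5 motif TTCNNNGAA stood before 7.56% of all these genes, 11.3% of those higher in CR females, Prlr, Esr1 and Sult3a1 among them, and 13.5% of those higher in CR males, which included Nox4 and C8a. The ONECUT motif ATCAATA stood before 1.41% of all, 4.03% and 6.76%, with Cyp2c69 on the female side and Mup3 and Mup21 on the male side. The HNF4A motif CAAAGTCCA stood before 0.647% of all, 4.84% of those higher in CR females (6 genes) and 1.35% of those higher in CR males (1 gene). Of the 6, Cyp3a16, Cyp3a41a, Cyp3a41b, Cyp2c40 and Cyp2c69 are P450 genes. The Cyp3a genes are neighbours on chromosome 5 and the Cyp2c genes on chromosome 19, and windows of close copies are not separate occurrences. The full palindrome of the oestrogen response element was in none of the windows. These letters describe the windows and do not show that a factor binds there.

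Some of the largest differences were those of sulphotransferases, which add sulphate to steroids, bile acids and xenobiotics to make them soluble. Of 16 tested, 9 were higher in CR females, against 1.33% of all autosomal genes, and none was higher in CR males, with a median log2 difference of 3.29. Sult2a1 (chr7:13796246-13837410), a hydroxysteroid and bile acid sulphotransferase, had normalised counts of 552 to 3816 with a median of 2478 in CR females. In the 5 CR males it had 0.975, 0, 1.02, 0 and 0, so the groups lay far apart. This corresponds to 13903 reads in the females and 2 reads in the males, a ratio of means of 5434 with a 95% Poisson interval of 1520 to 45333 that covers counting error only (limma, log2 difference 10.34 ± 0.81 SE, adjusted p = 2e-08).

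The other 5 called Sult2a genes lie beside Sult2a1 on chromosome 7 and had the same direction. Sult2a7 and Sult2a8 were tested but not called, with log2 differences of -0.94 and -0.51. Sult2a2 ranged from 854 to 2901 in CR females, with a median of 2475, and had 4 reads in the CR males together. Sult2a5 ranged from 200 to 977, with a median of 664, and had 2 reads in the males, both in CR male replicate 1. Sult2a6 ranged from 54.3 to 222 with a median of 172, against 1 read in the males.

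Sult2a3 and Sult2a4 were at 0 in all 5 CR males. Sult2a3 had 54.6 to 370 in CR females, which with a floor of 3 reads over the 5 males makes it at least 398-fold higher, and Sult2a4 had 23.7 to 84.1, at least 88.1-fold higher. The females were not uniform: CR female replicates 1 and 6 were the lowest in the 6 called Sult2a genes. Reads of so similar genes may have been split among copies, so their separate levels are uncertain.

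Sult3a1 (chr10:33851020-33879475), an amine sulphotransferase, ranged from 564 to 1712 in CR females with a median of 1012. Its values in CR males were 18.5, 16.3, 41.9, 5.49 and 7.09, again without overlap (limma, log2 difference 5.99 ± 0.63, adjusted p = 1.41e-06). Its neighbour Sult3a2 averaged 52.2 ± 27.9 (SD, n = 6) against 0.604 ± 0.91 (n = 5). Sult1a1, the phenol sulphotransferase that is expressed in both sexes, was higher by only 0.59 ± 0.14, and its call was lost when any of CR female replicates 2, 3 and 6 or of CR male replicates 1 and 5 was left out.

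**Figure D1:**
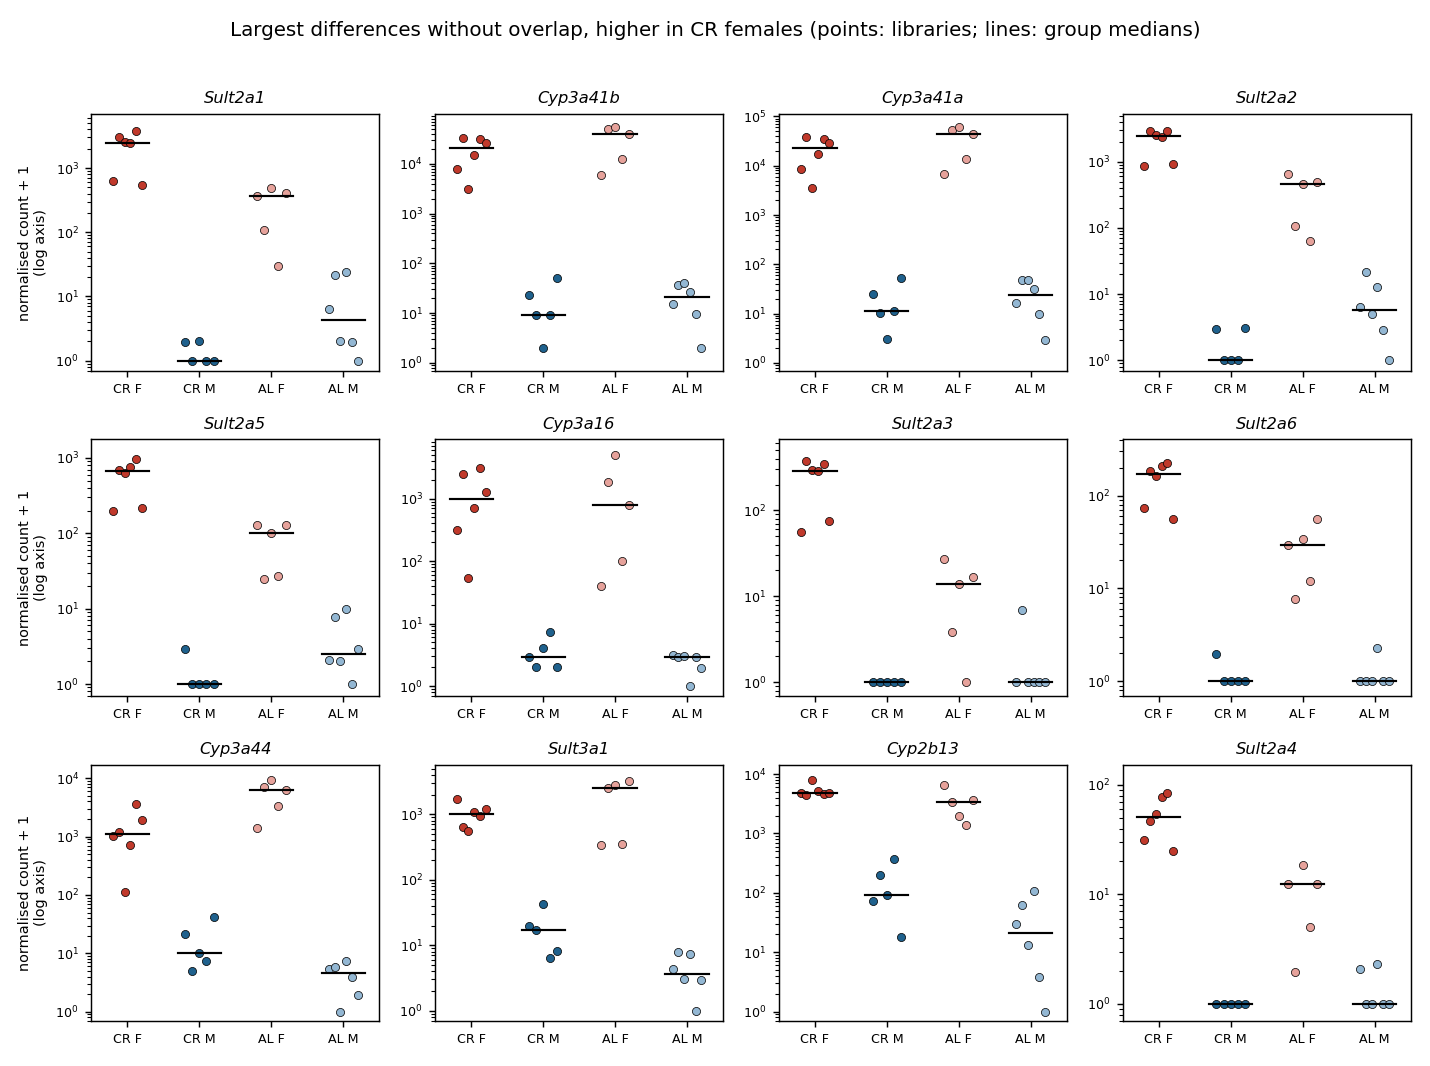
Normalised counts + 1 on a log axis in every library for the 12 called genes with the largest difference in favour of CR females, with groups on the horizontal axis (F, female; M, male). Points are libraries and lines are group medians. The genes were chosen among those whose sexes did not overlap under CR, so that all 6 CR females lie above all 5 CR males. Sult2a3 and Sult2a4 lie at 0 in every CR male.

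The P450 enzymes of family 3, which oxidise steroids and drugs, were divided between 4 genes called higher in CR females, against 1.33% of all autosomal genes, and 4 that were not called. Cyp3a41b ranged from 3086 to 33574 in CR females with a median of 21072, and had 22.4, 8.14, 1.02, 8.24 and 50.6 in CR males. Cyp3a41a gave almost the same values, 3510 to 37499 with a median of 23128 against 24.4, 9.16, 2.04, 10.1 and 52.7. The division of reads between such close copies is uncertain. Both differed by more than 10 log2 units (limma, 10.32 ± 0.84, adjusted p = 3.76e-08, and 10.24 ± 0.80, adjusted p = 2e-08).

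Cyp3a16 averaged 1308 ± 1208 in CR females and 2.69 ± 2.24 in CR males, and Cyp3a44 averaged 1420 ± 1206 and 16.1 ± 15.0. The spread among the females was wide, and CR female replicate 3 was the lowest in all 4 genes. The other 4 members, Cyp3a11, Cyp3a13, Cyp3a25 and Cyp3a59, were not called. Cyp3a11, the main family 3 enzyme of mouse liver, averaged 30525 ± 4187 in CR females and 35860 ± 19618 in CR males.

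Family 2 enzymes, which metabolise steroids, fatty acids and foreign compounds, moved in both directions: 7 of 37 tested were higher in CR females and 5 were higher in CR males, against 1.33% and 0.762% of all autosomal genes, with a median of -0.06. Cyp2b13 (chr7:26061388-26096197) ranged from 4369 to 8003 in CR females, and had 72.2, 196, 90.0, 368 and 17.2 in CR males (limma, log2 difference 5.74 ± 0.88, adjusted p = 0.0003). Cyp2a4, a steroid 15-alpha-hydroxylase, was the most abundant of the 7, with 33355 to 92507 and a median of 56654 in CR females. Its values in CR males, 3306, 4034, 2242, 9818 and 1447, did not reach the lowest female (4.08 ± 0.38, adjusted p = 2.57e-07).

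Cyp2c40 and Cyp2c69, which lie in one cluster on chromosome 19 and act on arachidonic acid and related lipids, were higher by 2.73 ± 0.23 and 3.61 ± 0.39. Cyp2b10, the classical target of the receptor CAR, averaged 90.3 ± 65.2 and 6.06 ± 2.79. Cyp2a22 was higher by 2.36 ± 0.45, and Cyp2c39 by 1.29 ± 0.32, a call that depended on CR female replicates 1, 3, 4 and 6 and on CR male replicates 1, 4 and 5. On the male side stood Cyp2d9 and Cyp2d12, described with the genes higher in CR males, and Cyp2f2, Cyp2c54 and Cyp2j9. Cyp2f2, a marker of periportal hepatocytes, averaged 9935 ± 4112 in CR females and 21840 ± 5798 in CR males. The other 7 periportal markers were not called, and their list had a median of 0.11. The call of Cyp2c54 was lost without CR male replicate 3 or 5, and that of Cyp2j9 in 13 of the 35 alternatives.

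The genes higher in CR males were led by Cyp4a12b (chr4:115411624-115439034) and Cyp4a12a, which hydroxylate arachidonic acid at its end to make 20-HETE. Cyp4a12a ranged from 0.867 to 18.8 in CR females with a median of 3.44, and had 302, 73.2, 306, 1267 and 4208 in CR males (limma, log2 difference -6.67 ± 0.73, adjusted p = 2.48e-06). Cyp4a12b ranged from 0 to 12.2 with a median of 1.97, against 302, 46.8, 223, 1115 and 2783 (-7.10 ± 0.73, adjusted p = 1.13e-06). The groups did not overlap, yet the males spanned more than an order of magnitude. Their reads may be split between the copies. Of the 14 family 4 genes tested, 2 were thus higher in CR males (0.762% of all autosomal genes) and 1 in CR females (1.33%), Cyp4f16, which was higher in CR females by 0.77 ± 0.20 and lost its call in 10 of the 35 alternatives.

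Mup20 (chr4:62011337-62054143), the major urinary protein known as darcin, had 1020 to 1466 in CR females with a median of 1067. In CR males it had 21364, 6781, 10915, 49571 and 108927, all above every female (limma, log2 difference -4.45 ± 0.44, adjusted p = 6.94e-07). Mup3 was also higher in CR males, at 127509 ± 52575 against 46865 ± 10930, with CR male replicate 5 at 219964 and the other males at 91715 to 114238. Mup21 was higher by 2.31 log2 units, which is -2.31 ± 0.54 as females minus males, a call lost without CR male replicate 4 or 5. Of the 18 major urinary protein genes tested, 3 were called, all higher in CR males (0.762% of all autosomal genes), and 17 lay lower in CR females, with a median of -0.59. In AL mice 13 of the 18 were called higher in males, where 6.57% of all autosomal genes were called in either direction, with a median of -2.25. The members are near-identical in sequence, and their separate values are uncertain.

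Cyp2d9 (chr15:82452377-82456827), a testosterone 16-alpha-hydroxylase, ranged from 1299 to 3026 in CR females and had 21064, 18082, 18193, 26121 and 31570 in CR males, a wide gap with little spread among the males (limma, -3.52 ± 0.29, adjusted p = 3.76e-08). Cyp2d12 beside it averaged 13.3 ± 4.82 and 109 ± 35.4. Slco1a1, a transporter that takes up bile acids and steroid sulphates, ranged from 36.6 to 323 with a median of 92.6, against 1256, 895, 1131, 493 and 4422 (-3.57 ± 0.50, adjusted p = 9.95e-05).

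Less familiar genes filled the rest of the male list. Nat8f5, an N-acetyltransferase-like gene, had at most 5.90 in CR females and 42.9, 111, 30.7, 72.3 and 68.9 in CR males. The predicted gene Gm4956 had at most 8.89 and 87.8, 119, 145, 122 and 142, one of the most even differences (limma, -3.996 ± 0.26, adjusted p = 2.79e-09). Grm8, a glutamate receptor, had 9 reads in the 6 females and 174 in the 5 males. Susd4, a membrane regulator of complement, was higher in CR males by 2.89 log2 units, or -2.89 ± 0.20 as females minus males, and Omd, an extracellular matrix protein, averaged 6.23 ± 3.74 and 47.1 ± 13.3. Elovl3, which lengthens fatty acids, averaged 25.4 ± 19.3 and 184 ± 110 (-2.88 ± 0.77, adjusted p = 0.0401). Its call was lost without any one of CR female replicates 2 to 6 or CR male replicates 1, 3, 4 and 5. Over these 12 genes, CR male replicate 5 was the highest male in 8 and CR male replicate 2 the lowest in 7.

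**Figure D2:**
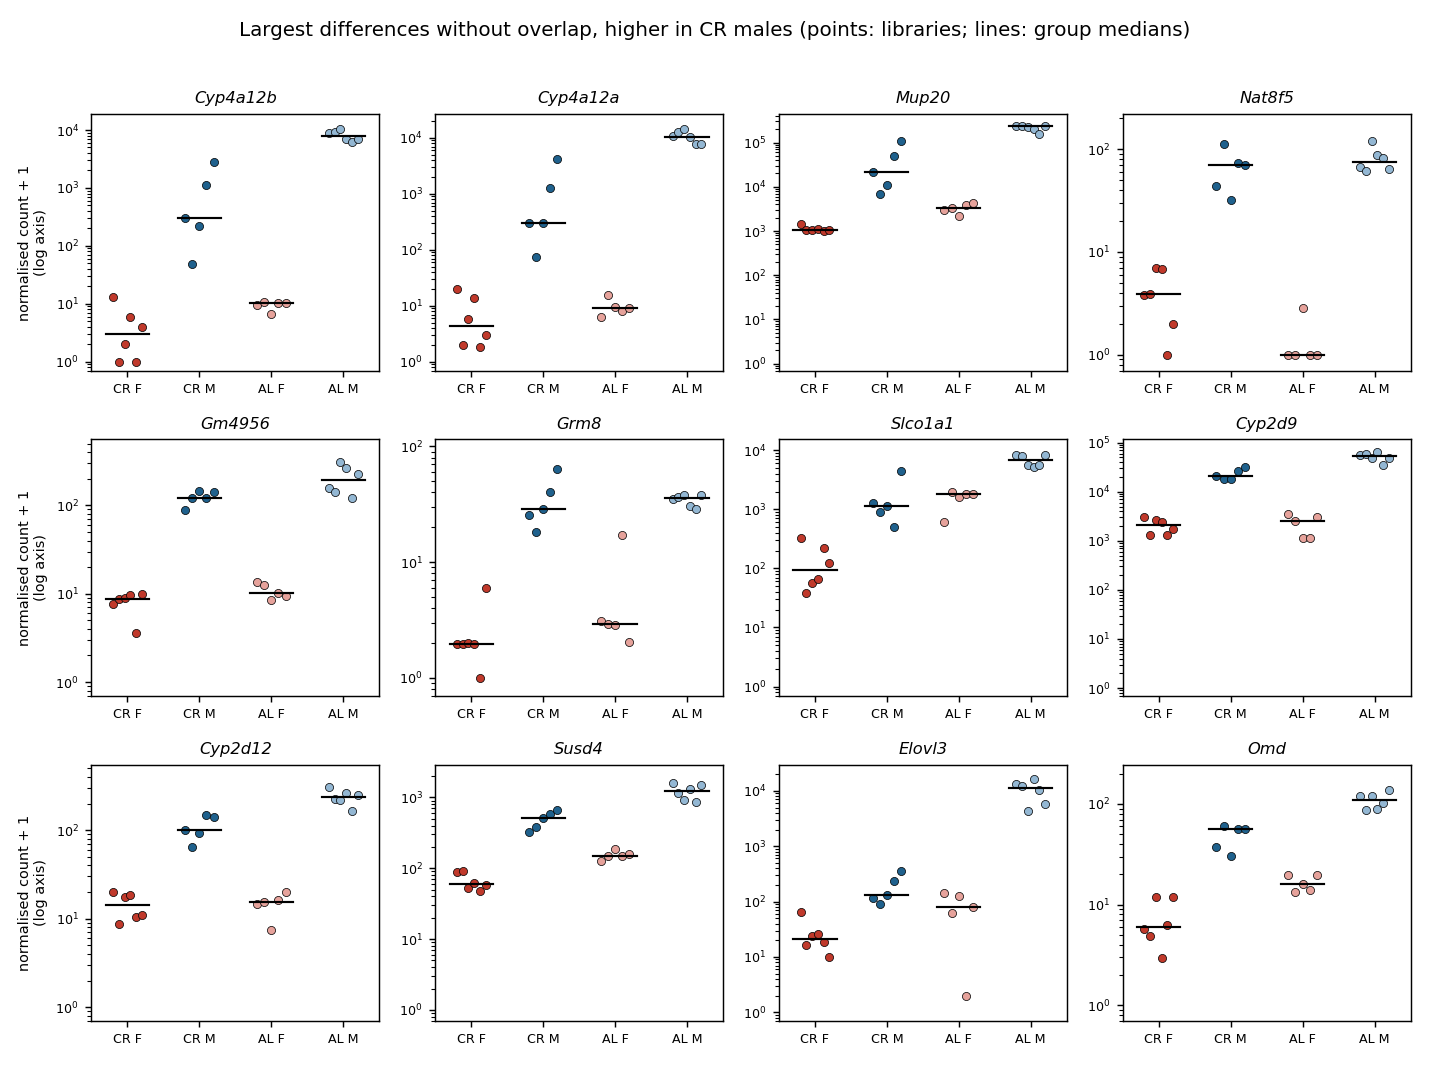
Normalised counts + 1 on a log axis in every library for the 12 genes with the largest difference in favour of CR males among called genes whose sexes did not overlap, with groups on the horizontal axis (F, female; M, male). Points are libraries and lines are group medians. The CR males lie above all CR females, as the choice required, and below every AL male in all but Nat8f5, Gm4956 and Grm8.

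Other enzymes and transporters for foreign compounds followed their own patterns, and their counts stand against 1.33% of all autosomal genes called higher in CR females and 0.762% in CR males. Of 16 glucuronosyltransferases tested, 3 were higher in CR males and none in CR females, with a median of -0.40: Ugt2b35 (991 ± 260 in CR females and 1845 ± 462 in CR males), Ugt2b5 and Ugt2b38, which lie in one region of chromosome 5. The calls of Ugt2b5 and Ugt2b38 needed CR female replicate 3 and CR male replicates 4 and 5, and that of Ugt2b38 also needed CR female replicate 1. Both calls were lost under quantile normalisation and without both acinar-rich libraries. That of Ugt2b38 was also lost under TMM scaling and in DESeq2. Of 21 glutathione S-transferases, 2 were higher in CR males, the adjacent copies Gstp1 and Gstp2. Gstp1 ranged from 8090 to 13158 in CR females and had 35225, 23183, 20786, 44489 and 56012 in CR males (limma, -1.81 ± 0.25, adjusted p = 9.38e-05). Gstp2 gave the same log2 difference, and reads of the pair may be shared. In all, 18 of the 21 lay lower in CR females, with a median of -0.40. Ces3a was the one carboxylesterase of 13 called, higher in CR males (24444 ± 11746 against 10588 ± 5103), a call that needed CR female replicate 2 and CR male replicates 4 and 5.

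Among 22 organic ion transporters, 3 were higher in CR females (1.33% of all autosomal genes) and Slco1a1 was higher in CR males. The 3 are neighbours on chromosome 19. Slc22a26 ranged from 2628 to 4779 in CR females and had 297, 157, 400, 156 and 55.7 in CR males (limma, 4.34 ± 0.40, adjusted p = 2.75e-07). Slc22a27 averaged 1326 ± 251 and 395 ± 249. Slc22a29 was higher by 1.14 ± 0.30 and lost its call in 13 of the 35 alternatives.

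Steroid and bile acid genes were called one at a time rather than as groups. Of 24 steroid dehydrogenases, reductases and related enzymes, 1 was higher in CR females and 2 in CR males, against 1.33% and 0.762% of all autosomal genes. Cyp17a1, the 17-alpha-hydroxylase of androgen synthesis, ranged from 7170 to 11847 in CR females and had 5673, 4652, 5122, 3593 and 2791 in CR males. Srd5a1, a 5-alpha-reductase that inactivates or activates steroids, averaged 1292 ± 145 and 2309 ± 728. Hsd3b5 had 3.93 to 86.7 in CR females and 159, 204, 180, 84.2 and 3057 in CR males. Its log2 difference was -4.15 ± 0.96 (limma, adjusted p = 0.0188), and without CR male replicate 5 it was -3.28 and not called.

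Of 23 genes of bile acid synthesis and transport, Cyp7b1 and Abcc4 were called, against 2.09% of all autosomal genes. Cyp7b1, which hydroxylates oxysterols in the alternative pathway of bile acid synthesis, averaged 271 ± 50.5 in CR females and had 944, 883, 1360, 1184 and 1564 in CR males (limma, -2.12 ± 0.22, adjusted p = 1e-06). Abcc4, an efflux pump for bile acids and steroid sulphates, averaged 158 ± 26.8 in CR females and 74.6 ± 12.8 in CR males. Among other secreted proteins, Hamp2, a relative of the iron hormone hepcidin, was higher in CR females by 1.81 ± 0.39, and lost its call without both acinar-rich libraries. The complement components C6 and C8a were higher in CR males by 1.52 and 1.63 log2 units, which is -1.52 ± 0.28 and -1.63 ± 0.42 as females minus males, and the call of C8a was lost in 10 of the 35 alternatives. None of the 15 serpins of clade A tested was called.

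Of 17 genes of growth hormone signalling, 2 were called, both higher in CR females, where 2.09% of all autosomal genes were called, and their median was 0.06. Prlr, the prolactin receptor, ranged from 4083 to 6172 in CR females and had 2689, 3846, 3833, 1950 and 1944 in CR males (limma, 0.88 ± 0.21, adjusted p = 0.0204), a call that was lost without CR male replicate 4 or 5. Igfbp3, which carries IGF1 in blood, averaged 611 ± 152 and 330 ± 64.8 (0.87 ± 0.18, adjusted p = 0.00671). The receptor Ghr averaged 9349 ± 990 in CR females and 9942 ± 969 in CR males (-0.09 ± 0.10), and Jak2, Stat5a and Stat5b had log2 differences of -0.00, 0.22 and -0.01. Igf1, the main endocrine product of growth hormone action, averaged 13132 ± 2082 and 13183 ± 2471 (0.00 ± 0.17).

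The feedback inhibitors of the pathway, which are switched on by each pulse of growth hormone, were uneven among CR males. Socs2 had 1987, 206, 248, 1873 and 719 in CR males and 440 to 1234 in CR females, and Cish had 359, 215, 142, 2027 and 86.1 against 135 to 785. Neither was called, at 0.12 ± 0.57 and 0.23 ± 0.70. Socs3 had 696, 69.2, 318, 640 and 218 in males and 104 to 301 in females (-0.47 ± 0.43). Socs1 stood at 19.3 to 22.3 in 4 CR males and 105 in CR male replicate 4. The phosphatases Ptpn1 and Ptpn6 (-0.04 and 0.14), Igfals (0.32), and the binding proteins Igfbp1, Igfbp2 and Igfbp4 (0.26, -0.35 and 0.06) were not called.

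Of 27 liver transcription factors, 1 was called, Esr1, the oestrogen receptor alpha, a share near the 2.09% of all autosomal genes. It ranged from 549 to 999 in CR females with a median of 742, and had 246, 564, 283, 225 and 238 in CR males, so that CR male replicate 2 lay above the lowest female (limma, 1.35 ± 0.27, adjusted p = 0.00539). The repressor Bcl6 had 276 to 1924 in CR females and 1839, 771, 862, 1445 and 1830 in CR males (-0.76 ± 0.51, adjusted p = 0.421). Cux2 had 399 to 2680 in CR females and 483, 987, 632, 694 and 641 in CR males (0.88 ± 0.51, adjusted p = 0.343). Tox and Trim24, which are higher in female liver under AL, had differences of 0.59 ± 0.25 and 0.49 ± 0.15 under CR and were not called.

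The hepatocyte identity factors Hnf4a, Foxa1, Foxa2, Foxa3, Cebpa and Cebpb had log2 differences from -0.48 (Foxa1) to 0.08 (Hnf4a), and Onecut1 and Onecut2 had 0.44 and 0.09. The nuclear receptors Nr1i2, Nr1i3, Ppara, Pparg, Nr0b2, Nr1h3, Nr1h4, Nr5a2 and Nr3c1 had differences between -0.20 (Nr5a2) and 0.32 (Nr1i3), and the regulators of lipid and glucose metabolism Srebf1, Mlxipl and Foxo1 had 0.05, 0.04 and 0.02. None of these was called. Srebf1 varied widely among CR females, from 2894 to 25360.

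Whether the sex difference was the same in both diets was tested as an interaction in the same fit. In AL mice 879 autosomal genes were called (6.57%), 493 higher in females and 386 higher in males. Of the 280 genes called under CR, 185 were called in the same direction in AL mice, which is 66.1% of the CR calls and 21.0% of the AL calls, and 1 was called in the opposite direction. The genes chosen as higher in AL females had a median difference of 0.94 in AL and 0.54 in CR, with 476 of 493 of the same sign in CR. Those chosen as higher in AL males had medians of -1.002 and -0.46, with 345 of 386 of the same sign. Chosen by their calls under CR instead, genes higher in females had medians of 1.04 in CR and 0.82 in AL, and genes higher in males -1.13 and -1.31. The medians in the diet by which genes were chosen only describe the choice.

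The interaction itself called 32 genes (0.239%). In 29 of them the sex difference was smaller under CR than under AL, 14 higher in AL females and 15 higher in AL males. The clearest was Cyp2b9 (chr7:26173350-26210661), a testosterone-metabolising enzyme whose upstream stretch is printed above beside that of Cyp2b13. It ranged from 9212 to 13047 in CR females, and had 6249, 12427, 10408, 8726 and 2727 in CR males and 106 ± 59.6 in AL males (n = 6). The sex difference was 7.22 in AL and 0.60 ± 0.37 under CR, and the difference between them -6.62 ± 0.53 (limma, adjusted p = 2.2e-07). Cyp2b13 kept a difference of 5.74 under CR against 7.65 in AL, and its interaction was -1.91 ± 1.24 (adjusted p = 0.936).

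Other genes that are higher in AL females had a smaller difference under CR, with higher levels in CR than in AL males. Fmo2, a flavin-containing monooxygenase, ranged from 2307 to 3286 in CR females and from 933 to 2480 in CR males, against means of 1772 ± 140 and 209 ± 44.2 in AL. Cyp2c38 averaged 4909 ± 855 and 4649 ± 975 under CR, against 5335 ± 1365 and 1018 ± 380 in AL. Trim24 went from a difference of 1.89 in AL to 0.49 under CR, Cux2 from 5.08 to 0.88, and Cyp17a1 from 3.40 to 1.19, which was still called. In each of these 5 genes, and in Cyp2b9, the CR males lay above every AL male.

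On the male side, Pitx3 had 0 to 3.95 in CR females and 2.92, 0, 2.04, 1.83 and 2.03 in CR males, while AL males averaged 195 ± 120. Its annotated span overlaps that of Elovl3, and the sources used here do not say if reads were counted by strand, so its reads may partly belong to Elovl3. Gm31121, a predicted gene, had 0.975, 0, 4.09, 2.75 and 5.07 in CR males and 40.9 ± 13.2 in AL males. The interaction calls of both were lost in edgeR and with a pseudocount of 0.25, and that of Gm31121 also in DESeq2. Mup-ps8, a pseudogene of the major urinary proteins whose reads may come from other copies, had 31.4 to 84.1 in CR females and 4.88, 38.7, 11.2, 9.15 and 18.2 in CR males. It averaged 46.1 ± 27.5 and 316 ± 218 in AL females and males, which made it the gene called in opposite directions in the 2 diets, though its call under CR was lost in 11 of the 35 alternatives.

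In the remaining 3 genes of the 32 the difference was larger under CR, and these were Sult2a genes: Sult2a2 (10.23 against 5.53 in AL), Sult2a5 (8.63 against 4.36) and Sult2a3 (7.56 against 2.45). CR females had 2090 ± 947 of Sult2a2 and AL females 354 ± 256, while CR males had 0.795 ± 1.09 and AL males 7.28 ± 7.64, levels at which the log2 value depends on the constant of 1 added to each count. With the interaction at 4.70 ± 0.96, 4.28 ± 0.84 and 5.11 ± 1.01, the call was lost in 16, 8 and 9 of the 34 alternatives in which it was fitted.

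**Figure D3:**
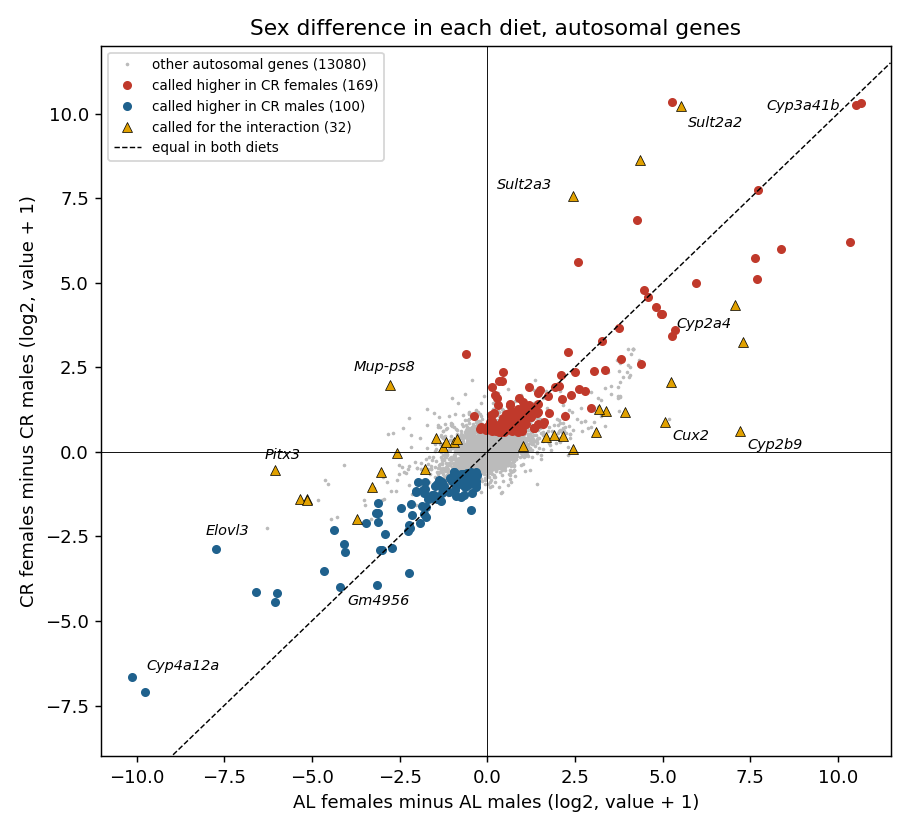
Sex difference (females minus males, log2 of the normalised count + 1) in AL mice on the horizontal axis and in CR mice on the vertical axis, for 13381 autosomal genes. Coloured points are the calls and triangles the 32 genes called for the interaction; the dashed line marks equal differences. Cyp2b9 lies near 0 on the vertical axis at 7.22 on the horizontal, and the 3 Sult2a genes called for the interaction lie above the line.

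**Figure D4:**
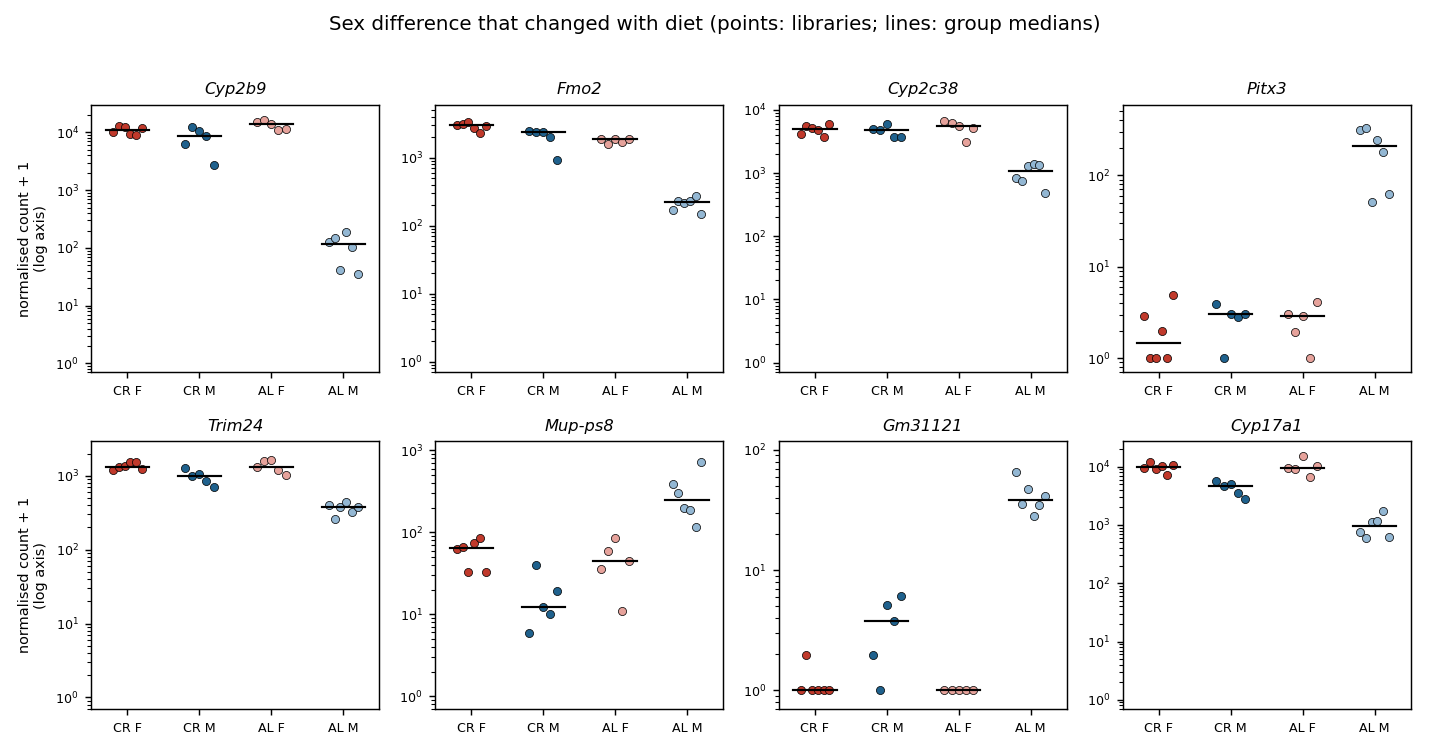
Normalised counts + 1 on a log axis in every library for the 8 genes with the smallest p for the interaction, with groups on the horizontal axis (F, female; M, male). Points are libraries and lines are group medians. In Cyp2b9, Fmo2, Cyp2c38, Trim24 and Cyp17a1 all CR males lie above the AL males, and in Pitx3, Mup-ps8 and Gm31121 below them.

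The pathways of energy metabolism were described as lists, since this study asks how CR acts on metabolism in each sex. No gene of fatty acid beta-oxidation (22 tested), ketone body synthesis (5), gluconeogenesis (7), glycolysis (19), cholesterol synthesis (21), the circadian clock (21) or of amino acid catabolism and the urea cycle (26) was called. Of fatty acid synthesis genes, Elovl3 alone was called of 21. Over all autosomal genes 2.09% were called, and in lists of these sizes such counts are near that share. G6pc and Pck1 of gluconeogenesis differed by 0.41 and 0.24 (limma, adjusted p = 0.50 and 0.67).

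Glycolysis genes had a median of -0.21, with 13 of 19 lower in CR females, and the sexes did not overlap in 4 of the 19, against 4.58% of all genes. The genes of oxidative phosphorylation also lay mostly lower in CR females. Of 76 subunits tested, 73 lay lower in CR females, with a median of -0.17, against -0.0032 over all autosomal genes. None was called. Cyc1, the cytochrome c1 of complex III, was the one with an adjusted p below 0.05 (limma, -0.35 ± 0.09, adjusted p = 0.036). Without a fold threshold, 3.29% of all autosomal genes had an adjusted p below 0.05. The sexes did not overlap in 8 of the 76, against 4.58% of all genes. The 3 subunits that lay higher, Cox7a1, Cox8b and Cox6a2, are isoforms known from heart and skeletal muscle, and 8 skeletal muscle markers summed to 17.0 to 16914 in CR females, with the highest in replicate 6, and to 33.2 to 1235 in CR males, with the highest in replicate 4. Of 23 genes of the TCA cycle and pyruvate dehydrogenase, 22 lay lower in CR females, with a median of -0.13, and Pdhx was the one with an adjusted p below 0.05 (-0.41 ± 0.10, adjusted p = 0.0325). These medians kept their sign under quantile normalisation (-0.11 and -0.06) and TMM scaling (-0.15 and -0.11). In AL mice the medians were -0.13 for oxidative phosphorylation, -0.02 for the TCA cycle list and -0.06 for glycolysis, with none called.

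Lipid uptake and storage leaned the other way. Of 19 genes tested, 17 lay higher in CR females, against 49.4% of all autosomal genes, with a median of 0.41. None was called, where 2.09% of all autosomal genes were. In AL mice the median was 0.62, and 4 of the 19 were called, all higher in females, against 6.57% of all autosomal genes. The largest were Fabp5 and Cd36, which bind and take up fatty acids, at 1.39 and 1.06 (limma, adjusted p = 0.10 and 0.093), and Plin2, which coats lipid droplets, differed by 0.07. Of 28 genes of sphingolipid metabolism, Asah1, the acid ceramidase, had an adjusted p below 0.05 at a fold below the threshold (0.34 ± 0.09, adjusted p = 0.0323), and none was called.

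**Figure D5:**
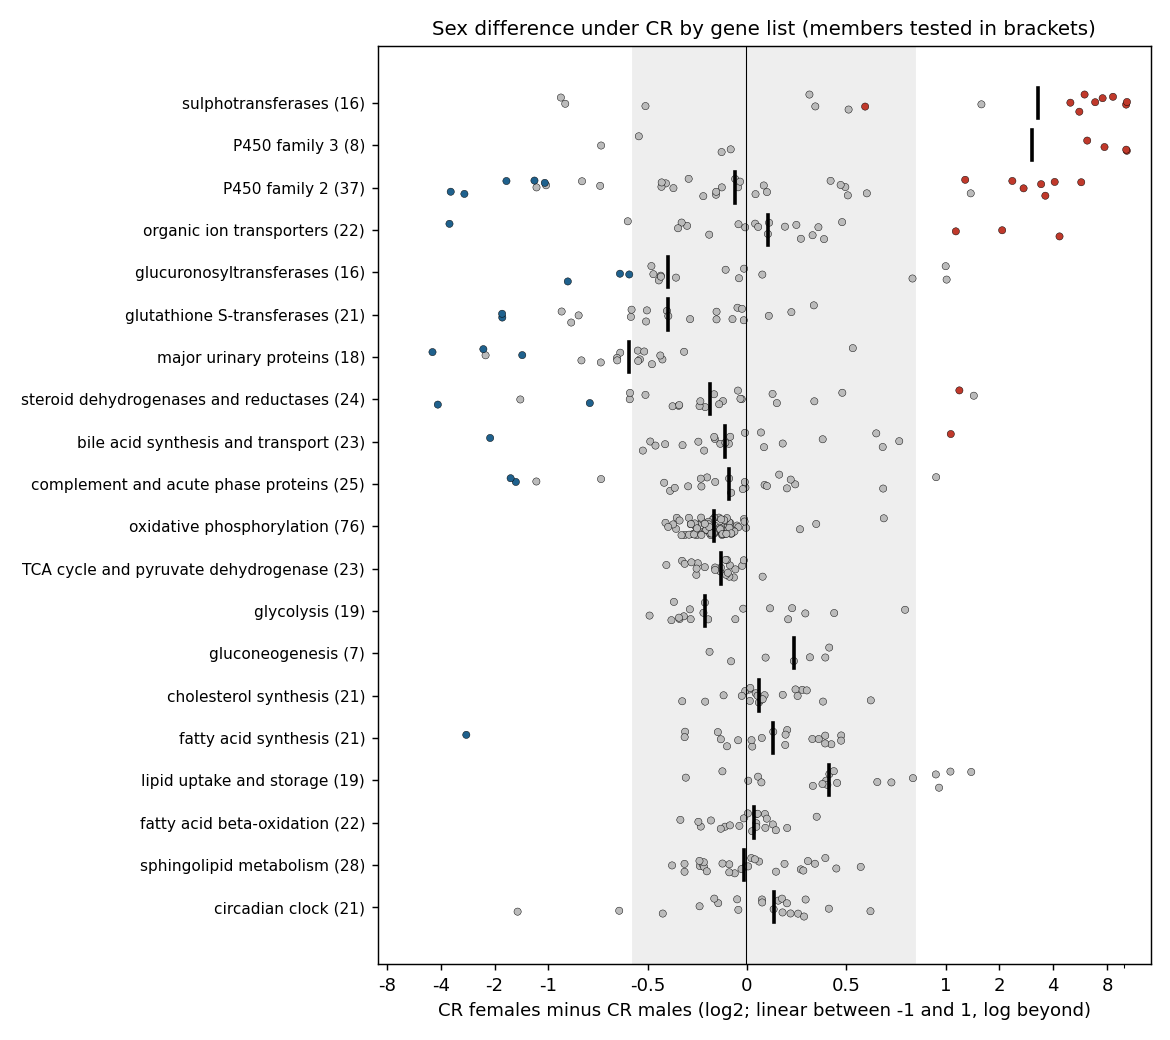
Difference between CR females and CR males (log2, linear between -1 and 1 and on a log scale beyond) for each gene of 20 lists, with the number tested in brackets. Red and blue points were called higher in CR females and CR males, grey points were not called, black bars are list medians, and the grey band holds the central 95% of all autosomal genes (-0.57 to 0.85). Members of P450 families 2 and 3, sulphotransferases and organic ion transporters reach beyond 4, and members of the major urinary proteins and the steroid enzymes beyond -4, while nearly all oxidative phosphorylation genes lie just below 0.

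Several lists of markers of cells other than hepatocytes lay on the female side, with 1 gene called. Over all autosomal genes 2.09% were called and 49.4% lay higher in CR females. All 7 markers of sinusoidal endothelial cells lay higher, with a median of 0.32, and summed to 9153 to 11689 in CR females and 6535 to 9969 in CR males. One was called, Lyve1, a hyaluronan receptor of these cells, at 571 to 1188 in CR females and 454, 331, 413, 350 and 445 in CR males (limma, 1.05 ± 0.22, adjusted p = 0.00869). All 8 stellate cell and fibroblast markers also lay higher, with a median of 0.46 and sums of 6168 to 9194 and 5004 to 6993, and 6 of 7 Kupffer cell markers with a median of 0.26. None of these was called. The 4 erythroid markers tested lay lower in CR females, with a median of -0.38 and none called. The 23 acinar markers lay higher in CR females with a median of 2.20, and 0.84 without CR female replicate 5. The part of these cells in the differences above was not tested.

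Some of the called genes stood next to each other. Joining calls of one direction less than 200 kb apart gave 19 groups that held 51 of the 178 genes higher in CR females, and 10 groups that held 22 of the 102 higher in CR males. The same count was not made over all autosomal genes tested, so how far it exceeds that of genes in general is not known. The groups with most genes were the 6 Sult2a genes over 631 kb of chromosome 7, 5 genes of the interferon-inducible Ifi200 family and its relatives (Pydc4, Pyhin1, Ifi204, Mndal and Ifi203) over 377 kb of chromosome 1, 4 genes with Slc22a26, Slc22a27 and Slc22a29 on chromosome 19, and the 4 Cyp3a genes over 370 kb of chromosome 5. On the male side they were Mup20, Mup3 and Mup21 on chromosome 4, and Rassf3, Gm40787 and Gm35696 on chromosome 10. Most of these groups are tandem copies whose reads are hard to separate.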

How the data were processed

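Livers of 22 mice were measured by RNA-seq, and the 11 CR libraries are described here. Per the methods and the labels, the authors used Trim Galore and FastQC on the reads, STAR 2.7.10a with mm10 for alignment, and featureCounts (Subread 1.5.2) to count reads per gene. The deposited values are a signal that is never negative: counts scaled by a DESeq2 1.36.0 size factor per library, with replicates kept apart. Whole reads were recovered in 21 libraries (100% of values within 0.01 of a whole read). AL female replicate 4 met the same criterion, but was left out of count tests because its value of 1 read, 1.00965, was the closest to 1 of all libraries.

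Gene positions came from RefSeq on GRCm38.p6, with 15747 symbols matched directly, 565 through a synonym and 526 unmatched. Of the genes tested, 393 were X-linked and 245 had no position, and these entered the fit but are not described. limma 3.58.1 in R 4.3.3 was run on log2(value + 1) with a variance trend, over the 14035 genes with a mean of at least 10, as 1 fit of the 4 groups over all 22 libraries. Differences are therefore on the log2(value + 1) scale, which understates those of low genes. The study tested counts with DESeq2, and limma was used here because the values are normalised. Labels call the libraries biological replicates, and p-values measure the spread between these mice. Intervals and floors cover counting error only. The scripts were tested on simulated data.

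Named genes were, for each direction, the 12 called genes of largest fold change whose sexes did not overlap, then called members of the lists, all members of the growth hormone and transcription factor lists, and the 8 genes called for the interaction with the smallest p. Genes outside this rule (Gbp3, Ifi44, Oas3, Oasl2, Ccnd1, Lyve1, A1bg, Hao2, Ntrk2, Nox4, Adh4, Ephx1 and Abcg2, uncalled genes given as examples of a list, and neighbours on a chromosome) were chosen after their values were seen. The comparison, the gene lists and the rule were chosen with earlier results of these data known. Some genes that the rule names are not reported here. The alternatives changed the pseudocount (0.25 or 5), the filter (none, or a mean of 50 or more), the scaling (quantile or TMM) and the test (edgeR 4.0.16 or DESeq2 1.42.0 on recovered reads). Others dropped the minimum fold change, added an acinar covariate or a replicate block, fitted the CR libraries alone, or left out each library in turn. Leaving out both acinar-rich CR libraries was added after seeing the data.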

Additional observations from a re-analysis of the deposited data

Results flagged for a closer look

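In 20 of 236 groups checked, 1 library stood apart from the rest of its group by Dixon's test, where chance alone gives about 1 in 20. The values below are normalised counts, with the range of the other libraries of the group.

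CR male replicate 1 held the reads of Sult2a5 (1.95) and Sult2a6 (0.975) that the other CR males lacked, at 0 each, and was low in Cyp2c54 (894.1, others 2240.6 to 2899.4). CR male replicate 2 was low in Pitx3 (0, others 1.831 to 2.925), Igfbp4 (43857.5, others 51575.6 to 52784.5) and Nr1i2 (1747.8, others 2386.8 to 2698.9), and high in Esr1 (563.6, others 225.2 to 283.3). CR male replicate 4, the male library with acinar transcripts, was high in Socs1 (105.3, others 19.33 to 22.29) and Foxa1 (1427.8, others 562.5 to 660.1). CR male replicate 5 was low in Fmo2 (933, others 2024.6 to 2480.4) and high in Mup3 (219963.9, others 91715.3 to 114237.8) and Hsd3b5 (3057.3, others 84.21 to 204.5).

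Among CR females, replicate 5, which carried most acinar transcripts, was low in Gm4956 (2.602, others 6.595 to 8.891), Socs3 (104.1, others 209 to 300.7) and Nr0b2 (442.3, others 1373.7 to 2071.1). Replicate 1 was high in Mup20 (1466.1, others 1020.0 to 1087.7), replicate 2 in Gm31121 (0.9633, others 0), replicate 3 in Cyp2b13 (8002.6, others 4368.8 to 5180.6), replicate 4 in Gstp1 (13157.6, others 8089.6 to 9674.9) and replicate 6 in Onecut2 (2882.6, others 2313.1 to 2509.6). The part of acinar transcripts in these values was not tested.

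For 14 named genes the sex difference under CR differed from that in AL mice by the interaction test of limma. As the CR difference minus the AL difference on the log2 scale, it was 4.698 for Sult2a2, 4.278 for Sult2a5, 5.105 for Sult2a3, 5.515 for Pitx3, 4.738 for Mup-ps8 and 3.929 for Gm31121. It was -6.616 for Cyp2b9, -2.513 for Fmo2, -2.358 for Cyp2c38, -1.402 for Trim24, -2.203 for Cyp17a1, -4.191 for Cux2, -2.717 for Slc22a26 and -3.171 for Slc22a27. Of 34 alternatives, the call was lost in 18 for Slc22a26 and in 14 for Slc22a27.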

How the results depend on the processing

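The 280 calls became 440 with no minimum fold change and 468 with DESeq2, and 167 to 439 when 1 library was left out. The 178 genes higher in CR females became 114 under quantile normalisation and 300 with DESeq2, and 104 to 259 when 1 library was left out, while the 102 higher in CR males became 227 with no minimum fold change, 168 with DESeq2 and 63 to 180. The 32 interaction calls became 18 with the replicate block, 80 with DESeq2 and 24 to 45 when 1 library was left out. The causes were not tested. No gene changed direction while called, but the share of calls on the female side went from 63.6% to 47.5% under quantile normalisation and 48.4% with no minimum fold change. Of 72 named genes called, 52 were called in every alternative in which they were tested, which for genes under the stricter filter was 34 of the 35, and Elovl3 was the exception among the 24 largest whose sexes did not overlap. Labels do not say whether equal replicate numbers pair mice. The deviations of same-numbered CR females and CR males correlated at -0.185 to 0.228 and matched best in 2 of 5. So few values could not exclude a pairing. The replicate block left 133 and 82 calls, with 63 of the 72 named genes and 17 of 31 named interaction calls. The median of all genes moved from -0.0017 to -0.0202 under quantile normalisation and 0.0165 under TMM scaling. Differences of genes with a few reads per library are limited by depth.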

Other observations

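Several called genes outside the lists differed widely. A1bg, a plasma glycoprotein, averaged 515 ± 524 (SD, n = 6) in CR females and 11.3 ± 6.51 (n = 5) in CR males, with no overlap (limma, log2 difference 5.10 ± 0.69 SE, adjusted p = 5.75e-05). Hao2, a peroxisomal hydroxyacid oxidase, averaged 406 ± 136 and 23.4 ± 14.7. Ntrk2, the receptor of brain-derived neurotrophic factor, ranged from 230 to 804 in CR females and had 44.9, 73.2, 58.3, 73.2 and 26.3 in CR males. Ccnd1, a cyclin of the G1 phase, ranged from 542 to 3371 in CR females and had 238, 484, 231, 258 and 374 in CR males. On the male side, Nox4, an NADPH oxidase, averaged 204 ± 44.4 in CR females and 1031 ± 189 in CR males (limma, -2.34 ± 0.23, adjusted p = 6.5e-07). Adh4, an alcohol dehydrogenase, averaged 792 ± 155 and 1952 ± 469, Ephx1, the microsomal epoxide hydrolase, 5010 ± 821 and 10007 ± 2285, and Abcg2, an efflux pump, was higher in CR males by 0.90 log2 units, which is -0.90 ± 0.17 as females minus males.

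Genes induced by interferon lay higher in CR females. Of 25 tested in a list drawn up after the calls were seen, 24 lay higher, against 49.4% of all autosomal genes, with a median of 0.62 against -0.0032, and 4 were called, against 1.33%: Oas3, Oasl2, Ifi44 and Gbp3. Of immune cell markers, 6 of 7 for Kupffer cells and 4 of 5 for lymphocytes and neutrophils also lay higher, none of them called, and their part in these values was not tested. The list is not independent evidence of its direction. Gbp3, a guanylate-binding protein, ranged from 200 to 420 in CR females and had 127, 195, 135, 167 and 130 in CR males (limma, 1.04 ± 0.23, adjusted p = 0.0166), and its call was lost with the replicate block. The calls of Oas3, Ifi44 and Oasl2 were lost in 12, 11 and 8 of 35 alternatives.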
